A study of Mus musculus with 20 samples.

Results

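The 6 genes described here are the AP-2 factors Tfap2a and Tfap2c, the GATA factors Gata2 and Gata3, and the Grainyhead-like factors Grhl2 and Grhl3, transcription factors linked to surface ectoderm and trophoblast. They were taken by symbol out of the 27998 genes of the single-cell gene tables, and no measured value entered that choice. All 6 had at least 1 unique molecular identifier (UMI, a tag that marks 1 captured RNA molecule) in assigned cells of each of the 3 single-cell experiments.

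AP-2 proteins bind GC-rich sites and act early in the surface ectoderm, the outer layer that forms epidermis, and in the trophectoderm, the outer layer of the blastocyst that forms the placenta. Gata2 and Gata3 bind GATA sites and work with Tfap2c in trophoblast, while Gata2 is also a regulator of blood progenitors and Tfap2c of primordial germ cells. Grhl2 and Grhl3 are activators of epithelial junction and barrier genes, and BMP signalling is a classical inducer of surface ectoderm at the expense of neural ectoderm.

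The study exposed differentiating cells of a male 129P2/OlaHsd mouse embryonic stem cell line to combinations of pathway agonists and inhibitors for 24 h, marked each well with transfected RNA barcodes called barcodelets, and read pooled cells by droplet single-cell RNA-seq. The germ layer experiment crossed 5 pathways at 2 levels in 32 conditions: RA against CD 2665 (retinoic acid pathway), GSK3iXV against IWR1 (Wnt), ActivinA against A8301 (Tgfb), Bmp4 against Dorsomorphin (Bmp) and Fgf2 against UO126 (Fgf). No germ layer condition left a pathway without an agent, so an agonist's effect cannot be told apart from the opposite effect of its inhibitor. In what follows, without Bmp4 means with Dorsomorphin, and words such as raised or lowered compare 1 level of a pathway with the other. The mesendoderm experiment crossed 7 pathways, with Notch and Shh added, in 128 combinations of 2 to 4 wells each. The mixed experiment crossed the 5 pathways from an undirected start (Und) and from a mesendoderm start (Mes), with 8 control wells per start that got no combination. The mesendoderm start was a 24 h pretreatment with Fgf2 and Activin A plus Dorsomorphin, CD 2665 and the GSK3 inhibitor. All cells had earlier been held in embryonic stem cell medium with GSK3 inhibitor XV and UO126 and then moved to differentiation medium. For the mesendoderm and mixed experiments the files give each pathway as plus or minus without naming the compound. Every population came from 1 cell line, and each experiment was 1 pool of cells in 1 library.

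Depth differed between the experiments. The germ layer experiment had 4350 assigned cells of 8421, with 70 to 230 cells and 991630 to 3816595 UMIs per condition. The mesendoderm experiment had 2899 assigned cells of 12781, and 300 of its 384 wells had 5 cells or more. These wells ranged from 27701 to 332644 UMIs. The mixed experiment had 4869 assigned cells of 5944, and 142 of 144 wells had that many, with a range of 101140 to 2119355 UMIs. Between 64 and 151 cell barcodes occurred in 2 experiments, of which 14 to 29 were assigned in both. The pluripotency gene Pou5f1 was detected in every germ layer and mixed population (63.2 to 902 CPM, the UMIs of a gene per 1000000 UMIs of the population) and in all but 4 mesendoderm wells. Of the placental markers, Prl3d1 had no UMI in the germ layer experiment and Elf5 and Tpbpa had 7 and 4 UMIs.

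Promoter sequences of the members that Bmp moved most are shown because the factors themselves bind short motifs that can be looked for there. The RefSeq promoter table (GRCm38.p6) held 4 of the 6 members. Each sequence is the 250 bases before the annotated start, read 5′ to 3′ on the gene's strand, with capitals marking every match to AP-2 (GCCNNNGGC), Grainyhead (AACCGGTT), the GATA factors' AGATAA, Smad GC box (GGCGCC) or Smad palindrome (GTCTAGAC) on either strand.
Gata3, chr2:9878601-9878850, minus strand: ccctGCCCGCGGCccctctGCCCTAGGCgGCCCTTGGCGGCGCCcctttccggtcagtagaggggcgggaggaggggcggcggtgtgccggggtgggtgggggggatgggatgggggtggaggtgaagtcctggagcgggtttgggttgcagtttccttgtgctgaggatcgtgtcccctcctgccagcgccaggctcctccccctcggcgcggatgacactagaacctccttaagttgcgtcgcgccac
Gata2, chr6:88193641-88193890, plus strand: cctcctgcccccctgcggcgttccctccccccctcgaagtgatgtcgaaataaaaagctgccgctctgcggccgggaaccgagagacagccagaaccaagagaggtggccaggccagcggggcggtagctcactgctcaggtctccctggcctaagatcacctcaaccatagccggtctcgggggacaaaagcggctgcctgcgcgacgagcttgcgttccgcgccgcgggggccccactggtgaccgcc
Tfap2a, chr13:40734921-40735170, minus strand: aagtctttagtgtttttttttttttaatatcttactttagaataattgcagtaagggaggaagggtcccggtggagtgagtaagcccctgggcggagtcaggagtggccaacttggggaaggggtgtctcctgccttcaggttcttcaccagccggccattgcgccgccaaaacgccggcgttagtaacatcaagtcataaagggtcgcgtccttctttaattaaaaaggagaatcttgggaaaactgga
The Gata3 window held 3 AP-2 matches, at 246 to 238, 231 to 223 and 221 to 213 bases before the start, followed without overlap by 1 Smad GC box at 212 to 207. The Gata2 and Tfap2a windows shown and the Grhl3 window (chr4:135573633-135573882, minus strand) held no match, which says only that these letters are not in these windows. A second annotated start of Gata2 (chr6:88198414-88198663, plus strand) held 1 AP-2 match at 222 to 214 and 1 Smad GC box at 38 to 33 bases before it, and a second start of Tfap2a (chr13:40733796-40734045, minus strand) held none. These 2 windows overlap untranslated exons of their gene and are not printed. Among 32841 RefSeq promoter windows of the same length, 13.7% held the AP-2 letters, 9.99% the GATA letters, 9.59% the GC box, 0.116% the Grainyhead letters and 0.167% the Smad palindrome.

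By the GENCODE gene models of mm10, with overlap counted only for genes in the count tables, Tfap2a lies at chr13:40715302-40738376 and overlaps Gm26688. Gata3 lies at chr2:9857078-9890034 and overlaps Gm13256, 4930412O13Rik and 9230102O04Rik. Grhl2 lies at chr15:37233036-37363569 and overlaps Gm16136. No source used here states the strand rule of the counting, so reads of these genes and their overlapping partners could be split or shared. No overlapping gene was found for Tfap2c (chr2:172549593-172558622), Gata2 (chr6:88193891-88207032) or Grhl3 (chr4:135541888-135573630).

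The first question was which of the factors responded to Bmp4 in the germ layer experiment. All 6 rose, and the size of the response separated Tfap2a, Gata2 and Gata3 from the rest. Tfap2a, an early surface ectoderm and neural crest factor, was at 0.814, 3.91 and 10.3 CPM (lowest, median and highest of 16 conditions) without Bmp4 and at 9.02, 37.3 and 57.0 CPM with it. Gata3, which marks trophectoderm and early surface ectoderm, was at 4.15, 9.43 and 16.5 CPM without Bmp4 and at 30.1, 47.5 and 67.2 CPM with it. Gata2 went from 0.654, 2.59 and 6.29 CPM to 4.34, 18.7 and 35.9 CPM. The groups did not overlap for Gata3, while 15 of 16 Bmp4 conditions for Tfap2a and 14 of 16 for Gata2 lay above the highest Dorsomorphin condition. The share of all genes whose groups do not overlap was not counted, for this or any later comparison. Each of these 3 genes was higher with Bmp4 in 16 of 16 pairs of conditions matched on the other 4 pathways. Because populations are sums over cells, more cells of a type and more RNA per cell cannot be told apart from these levels alone.

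**Figure D1:**
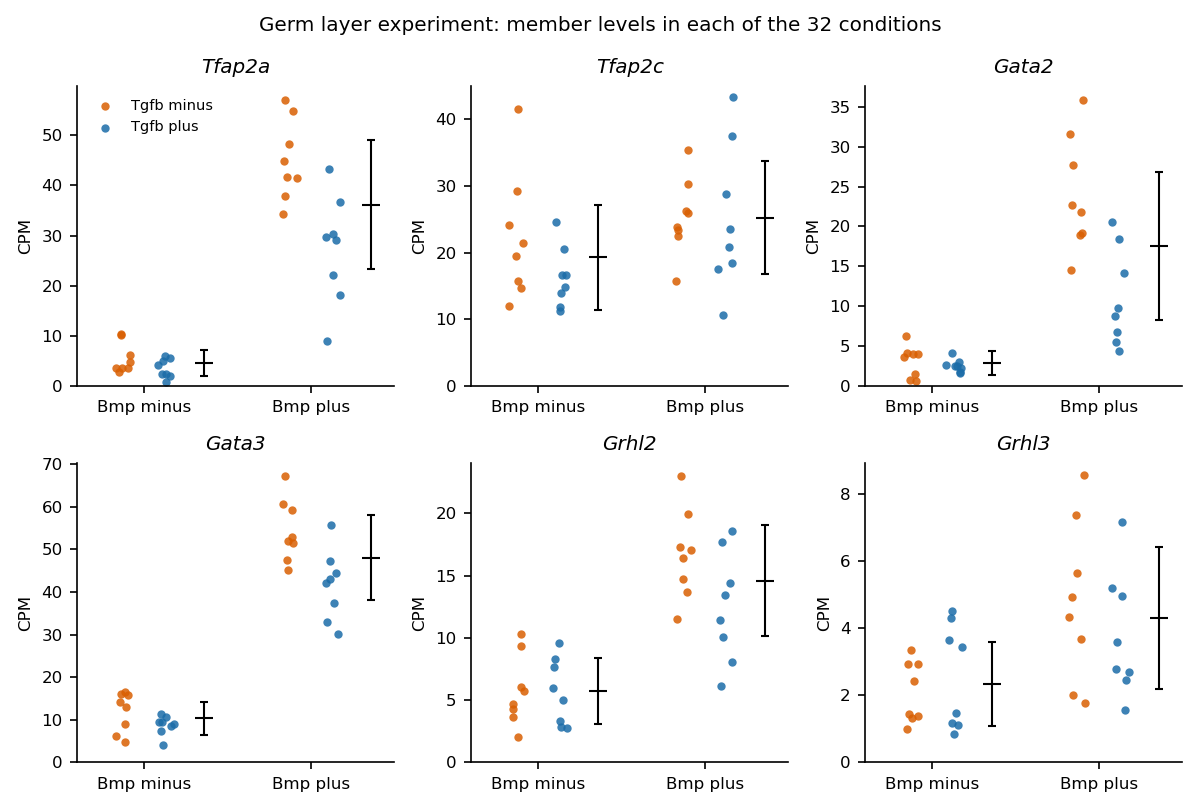
Level of each member in the 32 germ layer conditions, in CPM on the vertical axis, with conditions grouped by Bmp level and coloured by Tgfb level; each point is 1 condition and the bar is the mean ± SD of 16 conditions. Gata3 shows no overlap between the Bmp levels (highest 16.5 CPM without and lowest 30.1 CPM with Bmp4), while the Tfap2c groups overlap over most of their range.

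The fitted log2 change with Bmp4, from edgeR's quasi-likelihood test with Benjamini-Hochberg adjustment over 10614 genes, was 3.11 ± 0.20 (SE) for Tfap2a (adjusted p = 7.8e-16), 2.55 ± 0.26 for Gata2 (adjusted p = 2.0e-10) and 2.25 ± 0.12 for Gata3 (adjusted p = 5.1e-17). In all genes tested, 43.1% were called for Bmp4 and 21.6% were called higher, so a call alone was common in this contrast. Each condition was a single population, so the error in these fits is the scatter around an additive model of the 5 pathways and not the scatter of repeated wells.

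The Grainyhead-like factors and Tfap2c rose by less. Grhl2, an activator of Cdh1 and claudin genes, was at 2.03, 5.4 and 10.3 CPM without Bmp4 and at 6.15, 14.6 and 23.0 CPM with it. It rose by 1.42 ± 0.17 on the log2 scale (edgeR, adjusted p = 1.1e-08), in 16 of 16 matched pairs, with 13 of 16 Bmp4 conditions above the highest other condition. Grhl3, a factor of epidermal barrier formation and neural tube closure, was at 0.855, 1.96 and 4.52 CPM without and at 1.58, 4.01 and 8.55 CPM with Bmp4. The Grhl3 ranges overlapped widely, and the gene rose by 0.73 ± 0.23 (edgeR, adjusted p = 0.0084) in 14 of 16 pairs. Tfap2c, which embryonic stem cells already express and which acts in trophectoderm and germ cells, was at 11.2, 16.6 and 41.5 CPM without and at 10.7, 23.7 and 43.4 CPM with Bmp4. Only 1 of 16 Bmp4 conditions exceeded the highest other condition for Tfap2c. Its log2 change was 0.43 ± 0.16 (edgeR, adjusted p = 0.0263), with 13 of 16 pairs higher. This call was lost in 4 of 32 fits that left out 1 condition, with an adjusted p of up to 0.0664. With conditions named by the plus and minus levels of the 5 pathways, those left out in these fits were RA+Wnt+Tgfb+Bmp+Fgf+, RA+Wnt-Tgfb+Bmp+Fgf+, RA+Wnt-Tgfb+Bmp-Fgf+ and RA+Wnt-Tgfb-Bmp-Fgf+.

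The 3 genes with the largest Bmp responses were lower with ActivinA than with A8301. Tfap2a had a median of 22.4 CPM with A8301 and 7.50 CPM with ActivinA over 16 conditions each, Gata2 10.4 and 4.24 CPM, and Gata3 30.8 and 20.7 CPM. The ranges overlapped because both Bmp levels are in each group, and within matched pairs Tfap2a and Gata3 were lower with ActivinA in 14 of 16 and Gata2 in 12 of 16. The log2 changes were -0.77 ± 0.15 for Tfap2a (edgeR, adjusted p = 0.00088), -0.97 ± 0.22 for Gata2 (adjusted p = 0.0029) and -0.40 ± 0.11 for Gata3 (adjusted p = 0.015). Of all genes, 7.02% were called for Tgfb and 2.95% were called lower, against 3 of 6 members called lower. Tfap2c, Grhl2 and Grhl3 had log2 differences of -0.21, -0.31 and -0.09 that did not pass the test. Of the 14 BMP target genes, 5 fell and 1 rose with ActivinA (median log2 change -0.36), and of 8 surface ectoderm genes 1 fell and none rose (median -0.18).

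The other pathways moved single members by less than 1 log2 unit in the germ layer experiment. With RA, Tfap2c was at 25.3 ± 9.65 CPM (SD, n = 16) against 19.2 ± 6.21 CPM with CD 2665, a log2 change of 0.43 ± 0.16 (edgeR, adjusted p = 0.040) seen in 12 of 16 pairs. Grhl2 moved the other way, from 11.6 ± 5.31 CPM with CD 2665 to 8.75 ± 6.02 CPM with RA, with a log2 change of -0.45 ± 0.16 (edgeR, adjusted p = 0.030) and 12 of 16 pairs lower. RA called 27.7% of all genes, so 2 of 6 members is near that background. The Tfap2c call was lost in 14 of 32 fits that left out 1 condition, with an adjusted p of up to 0.0892, and DESeq2 gave an adjusted p of 0.050. The conditions left out in these 14 fits were RA+Wnt+Tgfb+Bmp+Fgf+, RA+Wnt+Tgfb-Bmp-Fgf+, RA+Wnt-Tgfb+Bmp+Fgf+, RA+Wnt-Tgfb+Bmp+Fgf-, RA+Wnt-Tgfb-Bmp+Fgf-, RA+Wnt-Tgfb+Bmp-Fgf-, RA-Wnt+Tgfb+Bmp+Fgf+, RA-Wnt+Tgfb+Bmp+Fgf-, RA-Wnt+Tgfb-Bmp-Fgf+, RA-Wnt+Tgfb+Bmp-Fgf-, RA-Wnt-Tgfb+Bmp+Fgf+, RA-Wnt-Tgfb-Bmp+Fgf+, RA-Wnt-Tgfb-Bmp+Fgf- and RA-Wnt-Tgfb+Bmp-Fgf+. The Grhl2 call was lost in 1 of those fits (adjusted p = 0.050 without RA-Wnt-Tgfb+Bmp+Fgf+). The other 4 members differed by between -0.21 and -0.10 with RA and were not called. With GSK3iXV, Grhl3 was at 3.93 ± 1.77 CPM against 2.71 ± 2.05 CPM with IWR1, a log2 change of 0.65 ± 0.22 (edgeR, adjusted p = 0.028) in 12 of 16 pairs. Wnt called 23.9% of all genes, and the Grhl3 call was lost in 4 of 32 fits, with an adjusted p of up to 0.0552, without RA+Wnt+Tgfb+Bmp+Fgf+, RA+Wnt+Tgfb+Bmp-Fgf+, RA+Wnt-Tgfb-Bmp+Fgf- and RA-Wnt-Tgfb+Bmp+Fgf+. The other members differed by between -0.25 and 0.40 with GSK3iXV and were not called. With Fgf2, where 7.93% of genes were called, Tfap2a differed by -0.46 ± 0.15 (edgeR, adjusted p = 0.055, and 0.030 in DESeq2) and was lower in 14 of 16 pairs. Grhl3 differed by -0.60 ± 0.22 (edgeR, adjusted p = 0.086) and the remaining 4 by between -0.10 and 0.13. Tfap2a passed the threshold in 6 of 32 fits without 1 condition, with an adjusted p as low as 0.0192, without RA+Wnt-Tgfb+Bmp+Fgf+, RA+Wnt-Tgfb-Bmp+Fgf+, RA+Wnt-Tgfb-Bmp+Fgf-, RA-Wnt+Tgfb-Bmp+Fgf+, RA-Wnt+Tgfb+Bmp-Fgf+ and RA-Wnt-Tgfb-Bmp+Fgf-.

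**Figure D2:**
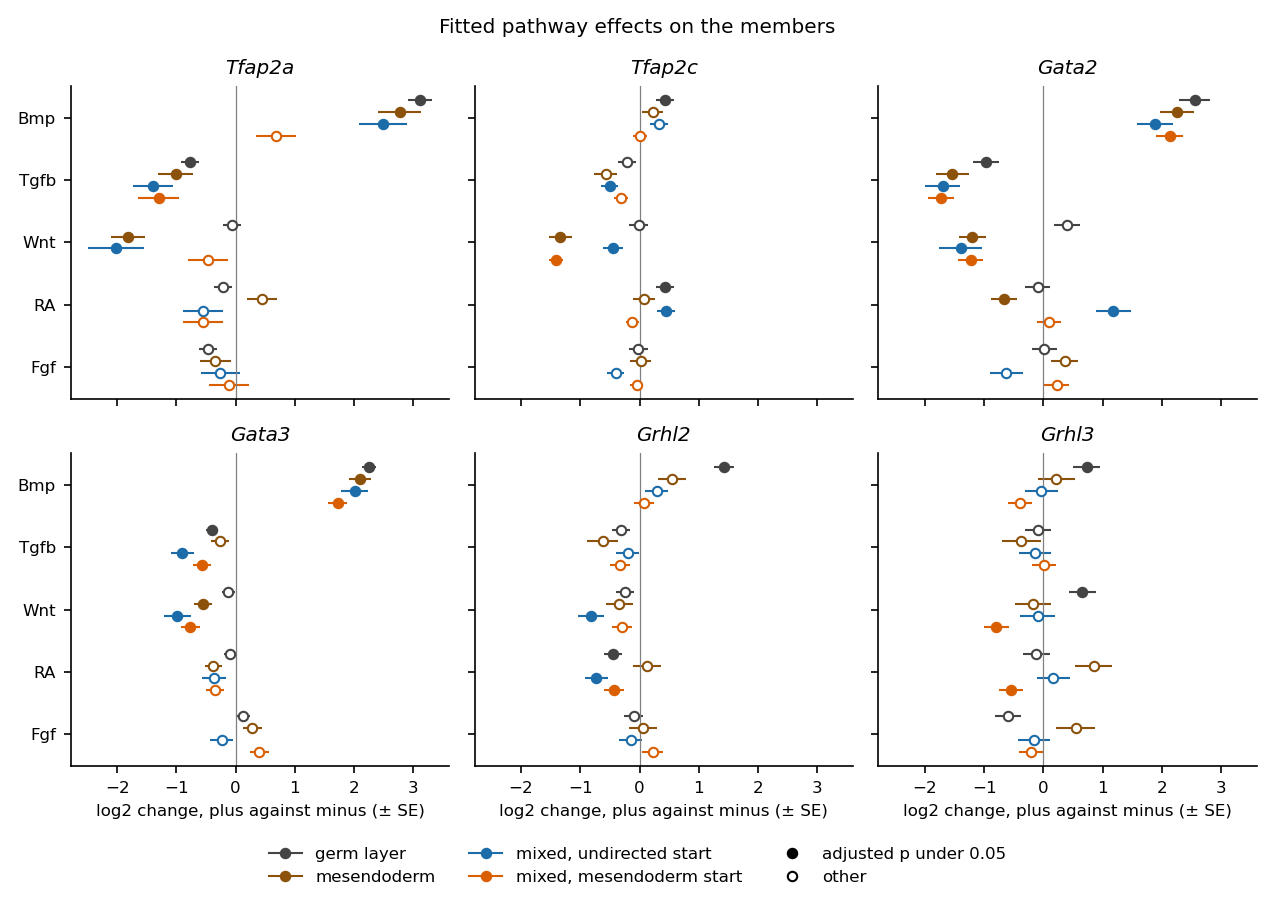
Fitted log2 change ± SE of each member for plus against minus of the Bmp, Tgfb, Wnt, RA and Fgf pathways, in the germ layer and mesendoderm experiments and from each start of the mixed experiment; filled points have an adjusted p under 0.05. Tfap2a, Gata2 and Gata3 lie to the right of 0 for Bmp and to the left of 0 for Tgfb in all 4 sets, with Tfap2a open for Bmp in Mes wells and Gata3 open for Tgfb in the mesendoderm experiment.

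Pairs of pathways were tested as products in 1 model over 11410 genes. Among the members, 2 of 60 products were called, and 12 had an unadjusted p under 0.05. The share of all genes under an unadjusted p of 0.05 was not counted, here or below, so such counts have no background beside them. For Gata2 the retinoic acid and Wnt levels interacted. Over 8 conditions each, Gata2 was at 6.56 ± 6.64 CPM with CD 2665 and IWR1 and at 14.6 ± 14 CPM with CD 2665 and GSK3iXV. With RA it was at 10.4 ± 8.26 CPM with IWR1 and at 9.21 ± 9.45 CPM with GSK3iXV. Gata2 was thus higher with GSK3iXV than with IWR1 at CD 2665 and not at RA, and the product was -1.45 ± 0.30 (edgeR, adjusted p = 0.0039), in a comparison where 3.63% of all genes were called. The SDs are wide because Bmp4 and Dorsomorphin conditions are both in each corner.

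For Grhl2 the retinoic acid and Bmp levels interacted. Without Bmp4, Grhl2 was at 7.88 ± 1.82 CPM with CD 2665 (5.75 to 10.3 over 8 conditions) and at 3.58 ± 1.04 CPM with RA (2.03 to 5.04), with no overlap. With Bmp4 it was at 15.3 ± 5.09 CPM with CD 2665 (6.15 to 23.0) and at 13.9 ± 3.95 CPM with RA (8.09 to 19.9), ranges that overlap widely. The product was 0.98 ± 0.27 (edgeR, adjusted p = 0.034), where 3.01% of all genes were called. With only this product added to the additive model its adjusted p was 0.086.

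**Figure D3:**
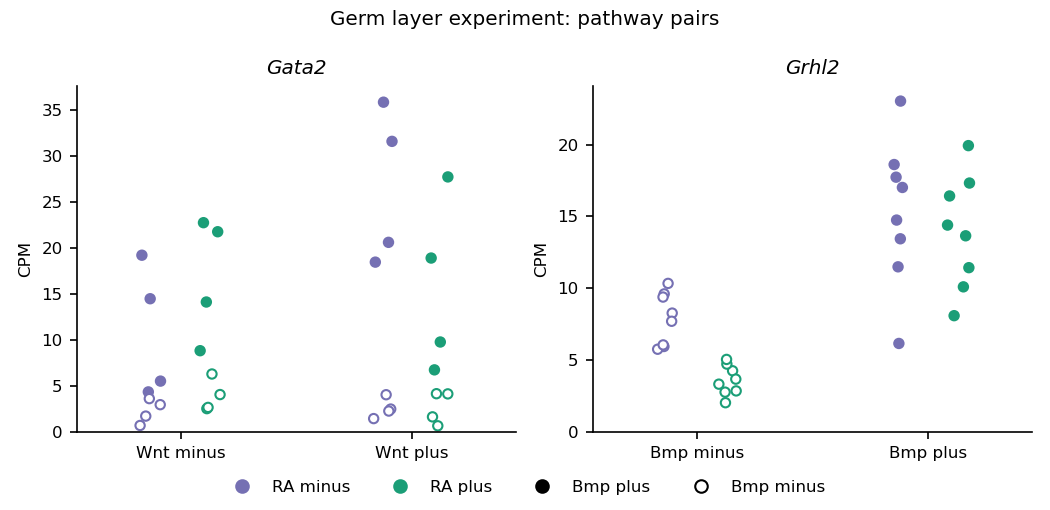
Left, Gata2 level in CPM by Wnt level with points coloured by RA level, filled for Bmp4 conditions; right, Grhl2 level in CPM by Bmp level with the same colours; each point is 1 germ layer condition. Grhl2 without Bmp4 splits by RA with no overlap (lowest 5.75 CPM with CD 2665, highest 5.04 CPM with RA), and with Bmp4 the RA groups overlap.

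No single combination held the maxima of all members. Tfap2a peaked at 57.0 CPM with GSK3iXV, A8301, Bmp4, CD 2665 and UO126, and Gata2 at 35.9 CPM with the same agents except Fgf2 in place of UO126. Gata3 peaked at 67.2 CPM with RA, GSK3iXV, A8301, Bmp4 and Fgf2. The 2 Grainyhead-like genes peaked in the same condition, CD 2665, IWR1, A8301, Bmp4 and UO126, at 23.0 CPM for Grhl2 and 8.55 CPM for Grhl3, from 84 cells. These 5 maxima share Bmp4 and A8301, while the Tfap2c maximum of 43.4 CPM was with ActivinA and Bmp4. Among the 16 conditions with the highest levels, those with Bmp4 numbered 16 for Gata3, 15 for Tfap2a and for Gata2, 14 for Grhl2, 11 for Tfap2c and 10 for Grhl3.

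Other genes of the surface ectoderm programme moved with the members under Bmp4. The lists were chosen with earlier results of these data known, so their counts describe and do not add support. Some lists share genes, so their counts are not separate. Hand1 is in the BMP target and trophoblast lists, Dlx3 and Dlx5 in the BMP target and surface ectoderm lists, and Zic1 in both neural lists. Of 14 tested BMP target genes, 13 rose and none fell (median log2 change 2.32), led by Tbx3 (2.99), a limb and extraembryonic mesoderm factor, Msx2 (2.58) and the inhibitory Smad gene Smad7 (1.51). All 8 tested surface ectoderm and simple epithelium genes rose (median 1.44), among them the keratins Krt18 (1.69) and Krt8 (1.47) and the homeobox gene Dlx3 (2.21). All 9 tested epithelial genes linked to Grhl factors rose (median 0.99), among them the claudin Cldn7 (1.3), Ovol2 (1.51) and E-cadherin Cdh1 (0.83). Over all 10614 genes tested, 2294 rose and 2281 fell, with a median of 0.00.

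Genes that mark placental, blood or germ cells gave mixed counts. Of 9 tested trophoblast genes 4 rose and 1 fell, with Hand1 at 3.63, Plac1 at 2.25 and Eomes, a trophoblast stem cell and mesendoderm factor, at -1.14. Of 4 primordial germ cell genes 3 fell, with Dnd1 at -0.99, Kit at -0.90 and Dppa3 at -1.17. Of 3 blood progenitor genes the Gata2 partner Lmo2 fell by 1.11 on the log2 scale. Of 4 neural crest genes 2 rose (Sox9 1.53 and Snai2 2.02) and 2 fell (Zic1 at -1.94). Of 9 neural ectoderm genes 8 fell, among them Foxb1 at -2.68, Zic2 at -1.67 and Sox1 at -2.79. Of 5 tested Tfap2, Gata and Grhl relatives, 1 was called, Ubp1 at 0.15.

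Summed marker levels differed with Bmp4 in both directions. The 13 surface ectoderm genes summed to 576, 842 and 1246 CPM (lowest, median and highest) without and 1558, 2062 and 2686 CPM with Bmp4. Krt8 and Krt18, at means of 522 and 456 CPM over the 32 conditions, made up much of this sum. The 13 trophoblast genes, of which 1 (Prl3d1) had no UMI, summed to 66.6, 139 and 299 CPM without and 106, 204 and 407 CPM with Bmp4, overlapping ranges. Neural ectoderm genes summed to 64.8, 144 and 296 CPM without and 36.2, 64.7 and 132 CPM with Bmp4. The part of these marker shifts in the member levels was not tested.

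Likeness was described by Pearson's r of log2(CPM + 1) over the 32 germ layer conditions, against 7445 other genes with a mean of at least 10 CPM, all from 1 library. The genes most like Tfap2a were Tbx3 (r = 0.907), Msx2 (0.906) and Rbpms (0.897). Gata3 was most like the simple epithelial keratin genes Krt8 (0.922) and Krt18 (0.916), followed by Rbpms (0.914). Gata2 was most like the amino acid transporter gene Slc38a4 (0.888), the inhibitory Smad gene Smad6 (0.868) and Msx2 (0.840). Grhl2 was most like Ahnak (0.884), Tma7 (0.862) and Kdf1 (0.861), and its r with Tfap2a was 0.829. Tfap2c and Grhl3 had no close match. Their best values were 0.680 (Prr13) and 0.705 (Rasa1).

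The likeness among members was lower within 1 Bmp level than over both. Tfap2a and Gata3 had r = 0.890 over all 32 conditions, 0.169 within the 16 Bmp4 conditions and 0.362 within the 16 Dorsomorphin conditions. Gata2 and Gata3 had 0.840 over all 32, 0.644 with Bmp4 and 0.0446 without. Tfap2a and Grhl2 had 0.829 over all 32, 0.604 with Bmp4 and 0.368 without.

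In single cells more cells had a UMI of each member with Bmp4. After thinning each cell to 5000 UMIs, which left out 84 of 2162 cells without and 81 of 2188 cells with Bmp4, the share of cells with a Tfap2a UMI was 1.49% (95% exact interval 1.02 to 2.11) without and 14.6% (13.1 to 16.2) with Bmp4. The Gata3 share was 4.57% (3.71 to 5.56) and 20.6% (18.9 to 22.4). Shares for the other members were 1.11% and 7.26% for Gata2, 2.26% and 7.07% for Grhl2, 1.3% and 2.14% for Grhl3 and 7.60% and 12.3% for Tfap2c. Unthinned shares were 4.95% and 36% for Tfap2a and 12.6% and 47.1% for Gata3, at median depths of 14889.0 and 15779.5 UMIs per cell. The Dorsomorphin cells served as the background for free RNA, since no cell type that should lack these genes was defined. These intervals, and all others here, cover counting error only.

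The members were found together in few Bmp4 cells at that depth. Of 2107 thinned Bmp4 cells, 50.8% had no member UMI, 36.4% had UMIs of 1 member, 11% of 2 and 1.85% of 3 or more. Among the 308 cells with a Tfap2a UMI, 22.7% had a Gata3 UMI, against 20.2% of the cells without one. For Grhl2 the shares were 9.09% and 6.73%. The Gata3 shares differed between experiments, on few cells with a Tfap2a UMI. In Bmp plus cells of the mesendoderm experiment they were 29.4% (of 34 cells) and 10.1%. In the mixed experiment they were 28% (of 25 cells) and 9.49% from Und, and 8.33% (of 24 cells) and 8.79% from Mes. These differences were not tested.

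The mesendoderm experiment asked about the same pathways at lower depth. At the median well depth 1 UMI corresponded to 9.89 CPM, and none of the members passed the filter on low counts, so their values come from a fit of all 18974 genes with a count. The 2899 assigned cells held 584 Gata3, 557 Tfap2c, 278 Gata2, 198 Grhl2, 112 Tfap2a and 71 Grhl3 UMIs, and 104 (Gata3) to 245 (Grhl3) of the 300 wells had none.

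Bmp again raised Tfap2a, Gata2 and Gata3, and no other member was called. Gata3 had a median of 0 CPM and a highest well of 58.0 CPM over 143 Bmp minus wells, against a median of 22.2 and a highest well of 85.8 CPM over 157 Bmp plus wells. Summed over wells, Gata3 was at 6.0 CPM (95% exact Poisson interval 4.82 to 7.39) and 26.0 CPM (23.7 to 28.5). Tfap2a was at 0.810 CPM (0.418 to 1.41) and 5.10 CPM (4.11 to 6.27), and Gata2 at 2.56 CPM (1.81 to 3.52) and 12.7 CPM (11.1 to 14.4). The intervals do not overlap for these 3 genes, although single wells do. The log2 changes were 2.77 ± 0.37 for Tfap2a (edgeR, adjusted p = 8.2e-13), 2.26 ± 0.29 for Gata2 (adjusted p = 1.1e-14) and 2.10 ± 0.19 for Gata3 (adjusted p = 8.0e-26), where 7.6% of all genes were called and 4.17% were called higher. Grhl2, Tfap2c and Grhl3 had differences of 0.54 ± 0.24, 0.22 ± 0.18 and 0.22 ± 0.31 that did not pass the test. Of 15 BMP target genes 14 rose (median log2 change 1.85), and of 13 surface ectoderm genes 5 rose and 3 fell (median 0.86).

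The Wnt plus level lowered 4 members in this experiment. Tfap2c was at 22.3 CPM summed over 152 Wnt minus wells and at 9.02 CPM (7.61 to 10.6) over 148 Wnt plus wells, and Tfap2a at 4.79 and 1.44 CPM. The log2 changes were -1.34 ± 0.19 for Tfap2c (edgeR, adjusted p = 3.4e-10), -1.82 ± 0.29 for Tfap2a (adjusted p = 1.1e-07), -1.20 ± 0.23 for Gata2 (adjusted p = 3.8e-06) and -0.55 ± 0.15 for Gata3 (adjusted p = 0.0036). Grhl2 and Grhl3 differed by -0.34 and -0.18 and were not called. The percentages called in this comparison were 13.9% of all genes in either direction and 8.27% lower. Trophoblast and epithelial genes also moved, with 6 of 11 trophoblast genes lower and 1 higher (median log2 change -0.95) and 6 of 10 Grhl-linked epithelial genes lower and none higher (median -0.58), against a median of -0.05 over all genes.

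The Tgfb plus level lowered Gata2 and, by a narrow margin, Tfap2a. Gata2 was at 10.7 CPM (9.36 to 12.2) summed over 192 Tgfb minus wells and at 3.51 CPM (2.53 to 4.75) over 108 Tgfb plus wells, a log2 change of -1.54 ± 0.28 (edgeR, adjusted p = 1.1e-06), where 2.8% of all genes were called. Tfap2a was at 3.82 CPM (3.02 to 4.76) and 2.01 CPM (1.29 to 2.99) and changed by -1.01 ± 0.29 (edgeR, adjusted p = 0.046), a call lost in DESeq2 (adjusted p = 0.55) and in edgeR without the wells numbered 0, 1 or 2 (adjusted p = 0.44, 0.20 and 0.14). The Gata2 call was lost without the wells numbered 1 (-1.03, edgeR, adjusted p = 0.085). The Tgfb levels differ in their number of wells, and how the well numbers spread over the levels was not counted. The part of fewer wells in these losses was not tested. Tfap2c, Gata3, Grhl2 and Grhl3 differed by between -0.62 and -0.27 with Tgfb and were not called. Gata2 was also lower with RA by -0.67 ± 0.22 (edgeR, adjusted p = 0.039), where 7.27% of all genes were called, a call lost in DESeq2 (adjusted p = 0.14) and in edgeR without the wells numbered 1 or 2 (adjusted p = 0.30 and 0.25). For RA the other members were not called, with Grhl3 at 0.85 ± 0.31 (edgeR, adjusted p = 0.185), Tfap2a at 0.45, Grhl2 at 0.13 ± 0.23, Tfap2c at 0.07 and Gata3 at -0.37. With Fgf, where members differed by between -0.34 and 0.55, no member was called by edgeR or DESeq2 and 0 of 6 had an unadjusted p under 0.05, where 2.09% of all genes were called. With Notch and Shh, where 0.058% and 0.0422% of genes were called, the largest member difference was Tfap2c with Notch at -0.43 ± 0.18 (edgeR, adjusted p = 0.71). No member was called there by edgeR or DESeq2, and 1 of 6 with Notch and 0 of 6 with Shh had an unadjusted p under 0.05.

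Products in this experiment were tested over 11776 genes with at least 50 counts, and 4 of 126 products of the members were called. The response of Tfap2a to Bmp was seen mainly at the Wnt minus level. Its UMIs numbered 4 in Bmp minus Wnt minus wells, 8 in Bmp minus Wnt plus, 76 in Bmp plus Wnt minus and 15 in Bmp plus Wnt plus wells, or 0.495, 1.19, 8.83 and 1.63 CPM. The product was -4.34 ± 0.93 (edgeR, adjusted p = 0.0045) and rests on few UMIs, in a comparison where 2.87% of genes were called. Gata2 followed the same order, at 2.23, 2.97, 19.3 and 6.51 CPM, with a product of -2.08 ± 0.59 (edgeR, adjusted p = 0.024). RA and Wnt interacted for Tfap2c and Grhl2, where 1.11% of genes were called. Tfap2c was at 25.5 CPM with RA minus and Wnt minus, at 5.77 with RA minus and Wnt plus, at 19 with RA plus and Wnt minus and at 12.3 CPM with both plus. The product was 1.60 ± 0.42 (edgeR, adjusted p = 0.0145). In the same order Grhl2 was at 7.40, 3.26, 4.77 and 6.63 CPM, with a product of 1.72 ± 0.47 (edgeR, adjusted p = 0.033).

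The mixed experiment set the same 5 pathways against 2 starts. The wells of a combination carry the numbers 0 and 1, and each fit was repeated without the wells of either number. From the undirected start Bmp raised the same 3 genes, Tfap2a from 0, 0 and 8.42 CPM (lowest, median and highest well) to 0, 4.12 and 33.9 CPM, Gata2 from 0, 3.33 and 23.3 to 0, 10.8 and 164 CPM, and Gata3 from 0, 5.14 and 16.3 to 0, 17.9 and 82.8 CPM. The Gata2 well at 164 CPM held 13 cells. Wells of the 2 levels overlapped for each gene. The log2 changes were 2.48 ± 0.40 for Tfap2a (edgeR, adjusted p = 7.6e-08), 1.89 ± 0.30 for Gata2 (adjusted p = 3.1e-07) and 2.01 ± 0.23 for Gata3 (adjusted p = 3.2e-14), where 7.81% of all genes were called and 4.32% were called higher.

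From the mesendoderm start Gata2 and Gata3 rose and Tfap2a stayed low. Gata2 went from 0, 4.13 and 36.7 CPM to 1.36, 16.7 and 87.1 CPM, and Gata3 from 1.31, 5.30 and 14.9 to 0, 16.1 and 42.4 CPM. Tfap2a was at 0, 1.3 and 8.10 CPM without and 0, 2.04 and 12.9 CPM with Bmp. The log2 changes were 2.13 ± 0.23 for Gata2 (edgeR, adjusted p = 7.3e-16) and 1.72 ± 0.17 for Gata3 (adjusted p = 1.1e-17), and the difference for Tfap2a was 0.68 ± 0.34 (adjusted p = 0.19), where 10.7% of all genes were called. The test of the difference between starts gave -1.80 ± 0.53 for Tfap2a (edgeR, adjusted p = 0.10, and 0.0098 without the filter on low counts), where 0.193% of genes were called. Tfap2c, Grhl2 and Grhl3 did not pass the test for Bmp from either start, with differences between -0.39 and 0.33. All 13 tested BMP target genes rose from both starts (median log2 change 1.75 from Und and 1.53 from Mes), while 5 of 8 and 4 of 8 surface ectoderm genes rose (medians 0.73 and 0.37).

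The Tgfb plus level lowered Tfap2a, Gata2 and Gata3 from both starts. From Und the log2 changes were -1.39 ± 0.34 for Tfap2a (edgeR, adjusted p = 0.0023), -1.70 ± 0.29 for Gata2 (adjusted p = 2.3e-06) and -0.90 ± 0.20 for Gata3 (adjusted p = 0.00077), and Tfap2c fell by 0.50 ± 0.15 (adjusted p = 0.027). From Mes they were -1.3 ± 0.35, -1.73 ± 0.22 and -0.57 ± 0.16 (edgeR, adjusted p = 0.0055, 1.9e-11 and 0.0076). Of all genes 4.14% were called from Und and 6.96% from Mes, 1.69% and 2.41% called lower. Tfap2c from Mes was at -0.31 ± 0.11 (edgeR, adjusted p = 0.074), and Grhl2 and Grhl3 differed by between -0.32 and 0.01 and were not called from either start. Of 13 BMP target genes, 7 fell and 1 rose from Und (median log2 change -0.70) and 8 fell and 1 rose from Mes (median -0.44). Without the wells numbered 0 the Gata3 calls were lost (edgeR, adjusted p = 0.094 from Und and 0.69 from Mes), and without those numbered 1 the Gata3 call from Und and the Tfap2a call from Mes were lost (adjusted p = 0.060 and 0.069). The Tfap2c call from Und was lost without either (adjusted p = 0.19 and 0.36). With Fgf, where 13.3% and 13.6% of genes were called, the members nearest the threshold were Tfap2c from Und at -0.40 ± 0.15 (edgeR, adjusted p = 0.055) and Gata3 from Mes at 0.40 ± 0.16 (adjusted p = 0.076). The other members differed by between -0.63 and 0.22. DESeq2 called none of the 5 tested members for Fgf, and 2 from Und and 1 from Mes had an unadjusted p under 0.05 in edgeR. With the filter on low counts, the Tgfb and Fgf effects of the members were not called as different between starts by edgeR or DESeq2 (0 and 2 of 5 with an unadjusted p under 0.05), where 0% and 1.47% of all genes were called. Without the filter the Fgf difference was called for Gata2 (0.86, edgeR, adjusted p = 0.015).

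Bmp, Wnt and Tgfb levels together separated the 3 Bmp-responsive genes most in Bmp plus wells at the minus levels of Wnt and Tgfb. From Mes, Gata2 was at 64.4 ± 15.4 CPM there (38.5 to 87.1, n = 8), and no well of the other Bmp plus corners exceeded 24.5 CPM. Summed over wells, the Bmp plus levels of Gata2 from Mes were 66.9 CPM with Wnt and Tgfb minus, 18.5 with Wnt plus only, 12.3 with Tgfb plus only and 7.56 CPM with both plus. From Und the same corners gave 42.4, 11.2, 10.3 and 3.20 CPM, where the intervals of the middle corners overlap. The product of Wnt and Tgfb for Gata2 from Mes was 1.31 ± 0.38 (edgeR, adjusted p = 0.11), which did not pass the test in a comparison where 0.5% of genes were called. Tfap2a from Und was at 25.8 CPM (21 to 31.2) in the first corner and at 7.36 CPM with Tgfb plus only, 3.41 CPM with Wnt plus only and 2.14 CPM with both plus. In the germ layer experiment the Wnt contrast called none of these genes. With Bmp4, Tfap2a was at 43.2 CPM with IWR1 and A8301 and at 46.5 CPM with GSK3iXV and A8301, with overlapping intervals, and at 30.9 and 22.6 CPM with ActivinA. Over both Tgfb levels, Gata2 with Bmp4 was at 13.8 CPM (12.1 to 15.7) with IWR1 and 21.3 CPM (19.3 to 23.3) with GSK3iXV. Gata3 was at 48.7 and 47.9 CPM. This Gata2 order is the reverse of that in Bmp plus wells of the mesendoderm and mixed experiments. Its germ layer product of Wnt and Bmp was 0.95 ± 0.40 (edgeR, adjusted p = 0.21), which did not pass the test. By edgeR none of the 120 products of the members in the mixed experiment was called. Of these products 23 had an unadjusted p under 0.05, with no share of all genes to set beside that count. The libraries were separate, so these levels are set side by side and were not tested against each other.

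**Figure D4:**
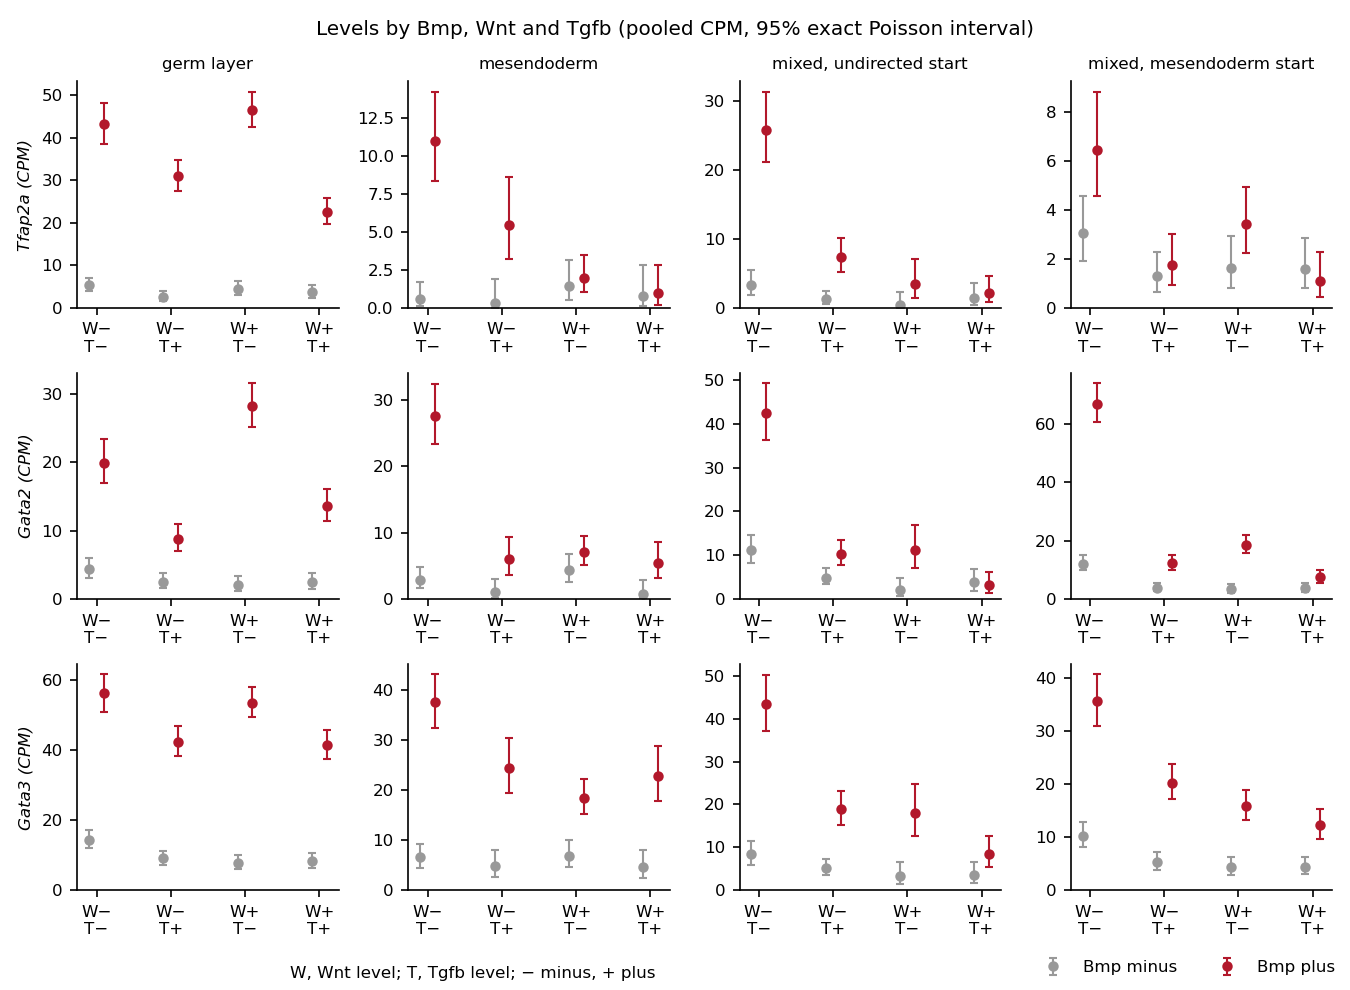
Level of Tfap2a, Gata2 and Gata3 in CPM summed over the wells of each Bmp, Wnt and Tgfb corner, with 95% exact Poisson intervals, in the germ layer experiment, the mesendoderm experiment and from each start of the mixed experiment. Bmp plus corners at Wnt minus and Tgfb minus are highest outside the germ layer experiment, such as Gata2 from Mes at 66.9 CPM.

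The Wnt plus level lowered Tfap2c more from the mesendoderm start than from the undirected start. There Tfap2c was at 29.9, 48.5 and 113 CPM (lowest, median and highest) in 32 Wnt minus wells and at 9.65, 20.6 and 43.5 CPM in 32 Wnt plus wells. From Und it was at 11.4, 39.2 and 78.7 CPM in 32 Wnt minus wells and at 5.09, 22.4 and 69.2 CPM in 30 Wnt plus wells. The overlap was thus smaller from Mes, and the log2 changes were -1.41 ± 0.12 from Mes (edgeR, adjusted p = 7.7e-22) and -0.45 ± 0.16 from Und (adjusted p = 0.021). The difference between starts was itself called, at -0.96 ± 0.20 (edgeR, adjusted p = 0.00064), where 7.77% of all genes were called. It was lost without the wells numbered 0 (-0.76, edgeR, adjusted p = 0.17), and the Tfap2c call from Und was lost without either number (adjusted p = 0.076 and 0.23).

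Other members were also called lower with Wnt, some of them from 1 start only. With Tfap2c, 5 of 5 tested members were called from Und and 3 of 5 from Mes. The Mes count is not far from the share of all genes called, given below. Of all genes called for Wnt, 46.2% from Und and 48.3% from Mes were called higher. From Und, where 36.1% of all genes were called, the log2 changes were -2.02 ± 0.47 for Tfap2a (edgeR, adjusted p = 2.2e-05), -1.40 ± 0.37 for Gata2 (adjusted p = 0.00040), -0.98 ± 0.23 for Gata3 (adjusted p = 0.00013) and -0.82 ± 0.22 for Grhl2 (adjusted p = 0.00098). From Mes, where 41.1% were called, they were -1.23 ± 0.21 for Gata2 (edgeR, adjusted p = 1.8e-07) and -0.76 ± 0.16 for Gata3 (adjusted p = 1.7e-05), with Tfap2a at -0.47 ± 0.34 (adjusted p = 0.26) and Grhl2 at -0.30 ± 0.17 (adjusted p = 0.15). Grhl3 passed the filter in neither start and comes from a fit of 20754 genes, in which 17.2% were called for Wnt from Und and 21.7% from Mes. It fell by 0.79 ± 0.21 from Mes (edgeR, adjusted p = 0.00089) and differed by -0.10 ± 0.29 from Und. The difference between starts was not called for Tfap2a (1.55 ± 0.58, edgeR, adjusted p = 0.067), Grhl2 (0.52 ± 0.28, adjusted p = 0.28) or Grhl3 (-0.70 ± 0.36, adjusted p = 0.36). Of 7 tested trophoblast genes, 4 fell and 2 rose from Und (median log2 change -1.28) and 6 fell and 1 rose from Mes (median -1.60). Without the wells numbered 0 the Gata2 call from Und (edgeR, adjusted p = 0.093) and the Gata3 call from Mes (adjusted p = 0.30) were lost, and without those numbered 1 the Grhl2 call from Und (adjusted p = 0.055). From Und the 30 Wnt plus wells held 10102283 UMIs and the 32 Wnt minus wells 19864137 UMIs, and the part of depth in these differences was not tested.

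**Figure D5:**
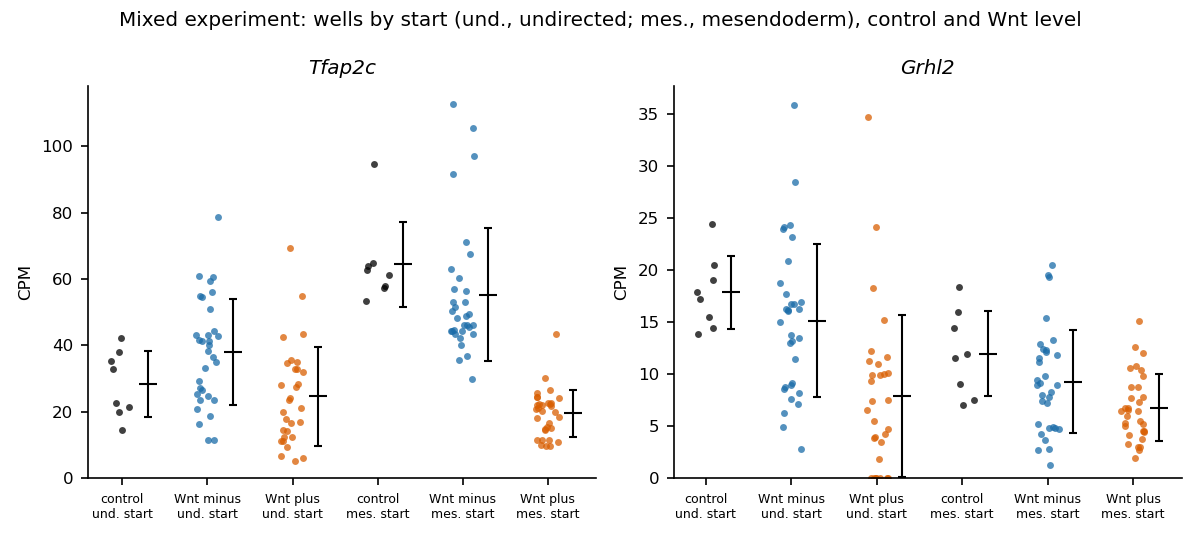
Level of Tfap2c and Grhl2 in CPM in each mixed well, by start and by control, Wnt minus or Wnt plus, with the mean ± SD of each group. Tfap2c control wells do not overlap between starts (highest 42.1 CPM from Und, lowest 53.3 CPM from Mes), and Wnt plus wells from Mes reach at most 43.5 CPM.

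The RA plus level raised Gata2 and Tfap2c from the undirected start. Gata2 was at 0, 4.09 and 37.7 CPM with RA minus and at 0, 8.48 and 164 CPM with RA plus, overlapping ranges, with a log2 change of 1.18 ± 0.29 (edgeR, adjusted p = 0.00045). From Mes it was at 0, 6.44 and 87.1 against 0, 6.88 and 69.3 CPM, a difference of 0.09 ± 0.20. The difference between starts was -1.09 ± 0.36 (edgeR, adjusted p = 0.043), where 5.68% of all genes were called. Tfap2c rose by 0.45 ± 0.15 from Und (edgeR, adjusted p = 0.015) and differed by -0.12 ± 0.11 from Mes, and the difference between starts was not called (-0.57 ± 0.19, adjusted p = 0.056). Grhl2 fell with RA from both starts, by -0.73 ± 0.20 from Und (edgeR, adjusted p = 0.0016) and -0.43 ± 0.17 from Mes (adjusted p = 0.041), as it did in the germ layer experiment, while in the mesendoderm experiment it differed by 0.13 ± 0.23 and was not called. Tfap2a and Gata3 differed by between -0.55 and -0.35 from either start and Grhl3 by 0.16 from Und, and none of these was called. RA called 34.3% of genes from Und and 30% from Mes, so 3 of 5 tested members from Und and 1 of 5 from Mes are not far from that background. Grhl3 fell by 0.55 ± 0.20 from Mes (edgeR, adjusted p = 0.043, in the fit without the filter, where 15.1% were called). Without the wells numbered 0 these Und calls were lost for Gata2 and Tfap2c (edgeR, adjusted p = 0.47 and 0.59), as was the Gata2 difference between starts (-0.34, adjusted p = 0.89), which also missed the threshold in DESeq2 (adjusted p = 0.082). The Grhl2 call from Und was lost without the wells numbered 1 (edgeR, adjusted p = 0.073), and that from Mes without either number (adjusted p = 0.21 and 0.25).

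Among mixed wells that got no combination, Tfap2c was at 14.7, 27.7 and 42.1 CPM (lowest, median and highest of 8) from Und and at 53.3, 62.0 and 94.7 CPM from Mes, with no overlap. The log2 difference of Mes less Und was 1.24 ± 0.22 (edgeR, adjusted p = 3.5e-06), where 8.57% of all genes were called, and no other member was called there. With the control wells of each start summed to 1 sample the difference was 1.22 and was not called (edgeR, adjusted p = 0.24). Grhl2 control wells were at 13.9, 17.5 and 24.4 CPM from Und and at 7.05, 11.7 and 18.4 CPM from Mes, overlapping ranges, with a difference of -0.51 ± 0.26 (edgeR, adjusted p = 0.24). Over the treated wells Grhl2 was lower from Mes by 0.37 ± 0.14 on the log2 scale (edgeR, adjusted p = 0.049), where 25.6% of genes were called, a call lost without either well number (adjusted p = 0.19 and 0.38) and with at least 10 cells per well (adjusted p = 0.11).

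Treated wells were compared with control wells of the same start at the middle of the coded pathway levels. The Grainyhead-like genes were lower in treated wells from both starts. Grhl2 changed by -0.76 ± 0.22 from Und (edgeR, adjusted p = 0.0083) and -0.61 ± 0.20 from Mes (adjusted p = 0.024). Grhl3, whose controls were at 4.23, 7.45 and 14.8 CPM from Und and 7.10, 9.96 and 18.7 CPM from Mes, changed by -0.90 ± 0.29 (edgeR, adjusted p = 0.030) and -1.23 ± 0.21 (adjusted p = 1.4e-06) in the fit without the filter. Tfap2c fell by 0.96 ± 0.13 from Mes (edgeR, adjusted p = 4.3e-09) and differed by 0.13 ± 0.20 from Und. Of all genes 19.3% were called from Und and 15.5% from Mes. Without the wells numbered 0 and then 1, the Grhl2 calls were lost from Und (edgeR, adjusted p = 0.21 and 0.072) and from Mes (adjusted p = 0.14 and 0.30). For Tfap2a, Gata2 and Gata3, the differences lay between 0.12 and 0.74 and did not pass the test.

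Bulk RNA-seq libraries of the same line gave the level in other states, as CPM of single libraries. In 2 untransfected libraries Tfap2c was at 57.9 and 59.2 CPM and Grhl2 at 5.85 and 4.67 CPM, while Tfap2a had 0 and 1 reads, Gata2 0 and 2 and Gata3 1 and 3. Libraries of barcodelet-transfected cells had Tfap2c at 49.8 and 34.1 CPM after 24 h and at 49.7 and 33.8 CPM after 72 h. Grhl2 there was at 7.05 and 6.90 CPM after 24 h and at 7.94 and 5.11 CPM after 72 h. In 2 libraries of cells sorted for a Tdgf1 reporter, Tfap2c was at 119 and 105 CPM, Grhl2 at 19.1 and 15.4 CPM and Gata3 at 8.58 and 12.1 CPM. In 3 libraries sorted positive for a Foxa2 reporter Tfap2c was at 26.9, 38.5 and 36.5 CPM, against 55.7 and 84.2 CPM in 2 negative libraries. With so few libraries these are values without a test.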

How the data were processed

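Single-cell values are UMI counts per gene and cell as deposited by the authors, with each cell's well taken from the authors' deposited assignments (cells that passed). The authors' deposited assignment tables also give a fraction, the share of a cell's barcodelet counts held by its most abundant barcodelets, which was not recomputed. Per the submitters' processing notes the tools were HTSeq 0.9.1 and STAR 2.5.2b, besides Cell Ranger 1.3.1, with build mm10, and the settings are not given in the sources used here. Bulk values are read counts per gene as deposited by the authors, for 13 libraries, and the second Foxa2-positive library was not analysed here.

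Counts were summed per condition or well with at least 5 cells and fitted in edgeR 4.0.16 (R 4.3.3, limma 3.58.1) with TMM scaling, filterByExpr and glmQLFTest, pathways coded 0.5 and -0.5, and Benjamini-Hochberg adjustment over all genes tested, with a threshold of 0.05. The design set filterByExpr for the mesendoderm experiment too, but it kept 2328 genes and none of the 6, so the fit reported there has no filter. DESeq2 1.42.0, RLE scaling, other filters and other sets of wells were alternatives. SEs are from the Fisher information of the unshrunk fit. The error is the spread between wells, or around the additive model, within 1 library, so p-values measure that spread and not repeated cultures. Tested on simulated data, the script recovered 98% (germ layer, Bmp, 10614 genes), 94% (mesendoderm, Bmp, 11776 genes) and 97% (mixed, Bmp from Und, 8791 genes) of 100 genes changed 2-fold, and 100% of those changed 4-fold in each. The simulation gave every gene the same dispersion. For the mesendoderm experiment it held only genes with at least 50 counts, unlike the reported fit of 18974 genes. These shares describe the script and not the power in the data, and false calls are not given here. Thinning, figures and sequence matching used Python 3.11.15 (numpy 2.4.6, pandas 2.3.3, scipy 1.17.1, matplotlib 3.10.9).

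All 6 members were tested in each pathway, start and control comparison. Members that were called are given by value, and some that were not called are given only as a range or not at all. The text also names, for each of 9 gene lists, the 3 genes with the smallest adjusted p for Bmp4 in the germ layer experiment, and for each member the 3 most correlated genes. The marker genes at 0 or near it were named after their values were seen. Members and lists were chosen with earlier results of these data known. Doublets were not called.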

Additional observations from a re-analysis of the deposited data

Results flagged for a closer look

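Among 12 groups of 8 control wells (6 genes from 2 starts), 2 held a well far from the others by Dixon's criterion, which chance gives in about 1 in 20 groups. Gata3 from Und had a highest control well of 14.8 CPM, with the next at 8.59 CPM. The highest well was the shallowest Und control, with 24 cells and 473394 UMIs. The next held 29 cells and 698131 UMIs. Both values rest on few Gata3 UMIs, and the part of depth in the gap was not tested. Tfap2c from Mes had a highest control well of 94.7 CPM, with the next at 64.7 CPM, and the lowest Mes control well still lay above the highest Und control well.

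Pathway effects that differed between the starts by a test of the difference itself were found for 2 genes. The RA effect on Gata2 from Mes less that from Und was -1.09 on the log2 scale, where 5.68% of all genes were called. The Wnt effect on Tfap2c from Mes less that from Und was -0.96, where 7.77% of all genes were called. Both calls were lost without the wells numbered 0, and DESeq2 did not call the RA difference for Gata2.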

How the results depend on the processing

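No result that was called in the reported fit or in an alternative changed direction between them, and sign changes of results called in neither were not counted. The members called for Bmp and for Tgfb in the germ layer experiment, and for Bmp and Wnt in the mesendoderm experiment, kept their number within 1.5 times under every alternative that could be fitted. Counts of members called moved by more elsewhere, and the cause was not tested. The share of all genes called under each alternative is not given in this section, so its counts have no background beside them.

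DESeq2 called 1 member for RA (edgeR 2) and 1 for Fgf (edgeR 0) in the germ layer experiment, 0 for RA (edgeR 1) and 1 for Tgfb (edgeR 2) in the mesendoderm experiment, and 0 for the RA difference between starts (edgeR 1). RLE scaling called 1 for Fgf from Und (TMM 0) and 2 for that RA difference. Without the filter on low counts, which adds genes such as Grhl3, the mixed experiment gave 2 for Fgf from Und, 3 for RA from Mes, 1 for Fgf from Mes, 2 for the RA, 2 for the Wnt, 1 for the Bmp and 1 for the Fgf difference between starts, and 2 from Und and 4 from Mes for treated against control wells. With at least 10 cells per well, 0 were called for RA and 1 for Tgfb in the mesendoderm experiment, and 0 for the RA difference and the start difference in treated wells. With the wells of a combination summed, the same 4 comparisons gave 0, 1, 0 and 0, RA from Mes gave 0, the start difference in control wells 0, and treated against control wells 0 from Und and 1 from Mes. In the germ layer experiment all products in the model gave 1 member for Fgf, and 1 product at a time gave 1 member product called.

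Leaving out 1 germ layer condition gave 0 to 2 members for RA, 0 to 1 for Wnt and 0 to 1 for Fgf, where edgeR called 0 with all conditions and 2 of 6 had an unadjusted p under 0.05. Leaving out the wells of 1 number gave 0 to 1 for RA and 0 to 3 for Tgfb in the mesendoderm experiment. In the mixed experiment, where it leaves 1 well per combination and Tfap2a did not pass the filter without the wells numbered 0, it gave 1 to 2 (RA), 2 to 3 (Wnt) and 1 to 2 (Tgfb) from Und. From Mes it gave 0 to 0 (RA) and 1 to 2 (Tgfb). For the RA and the Wnt difference between starts it gave 0 to 1 each, for the start difference in treated wells 0 to 0, and for treated against control wells 0 to 0 from Und and 1 to 1 from Mes.

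In the mixed experiment wells of the same number deviated together, with a median correlation of 0.131 between their deviations. The correlation was over 0.1 in 59.4% of 961 pairs. Deviations were taken from the mean of the 2 wells of a combination, so those of number 1 mirror those of number 0. The -0.131 for wells of different numbers follows from this and is no separate evidence. In the mesendoderm experiment the medians lay between -0.00687 and 0.0056. The pairing criterion, a correlation over 0.1 in every pair, was met in neither, and the labels name no shared batch, so the block stayed an alternative. In a fit with the replicate number as a block, 0 members were called for the start difference in treated mixed wells (Grhl2 -0.34, adjusted p = 0.18). In the mesendoderm Tgfb comparison Tfap2c was called with the block (-0.74, adjusted p = 0.040) and Tfap2a was not (-0.95, adjusted p = 0.20), both by edgeR. The block changed no other member call of the 53 compared.

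In the mesendoderm experiment 1 UMI is 9.89 CPM at the median well depth, which limits what single wells can show. Shares of cells with a UMI rose with the depth kept. Thinned to 8000 UMIs, Tfap2a was seen in 2.40% of cells without and 21.9% with Bmp4.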
